A study of Mus musculus with 12 samples.

Results

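Plasmablasts (PBs) without Mist1 were compared with PBs that carried intact Bhlha15, the gene encoding Mist1, to ask which transcripts depend on this transcription factor. The comparison used 4 of the 12 samples of the series, chosen by their genotype labels: 2 libraries of Bhlha15(CreER/CreER) PBs and 2 libraries of Xbp1(fl/fl) PBs. The Bhlha15(CreER/CreER) cells carried a tamoxifen-inducible Cre recombinase inserted into both Bhlha15 alleles, which takes the place of Mist1. The Xbp1(fl/fl) cells carried loxP sites in both Xbp1 alleles but no Cre, so that the genotypes also differed at the Xbp1 locus and the control was not a littermate with wild-type alleles. Both came from C57BL/6 mice. Splenic B cells were kept on 40LB feeder cells, a fibroblast line that presents CD40 ligand and BAFF, with IL-4 and then IL-21, and PBs were sorted on day 8 for CD138 and against CD23, among other markers. Cd23-Cre Xbp1(fl/fl) PBs (2 libraries), in which Cre targets Xbp1 in B cells, and splenic plasma cells (PCs) taken 7 days after immunization (2 libraries of Cd23-Cre Bhlha15(fl/fl) PCs, in which Cre deletes Bhlha15 in B cells, and 2 of control PCs labelled wildtype) served as points of reference, together with 2 maps of Mist1-bound regions. The maps came from PBs of another genotype, Bhlha15(fl/fl) R26(BirA/BirA). Its floxed Bhlha15 allele adds a tag to Mist1 that the BirA ligase labels with biotin. The labels do not say whether the libraries of a group came from separate mice, and p-values then measure the spread between these libraries only. RNA from the sorted population was measured as TPM, a transcript level per length that is scaled to the same total in every library. In such bulk RNA, fewer cells of a type and less RNA per cell cannot be told apart.

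Mist1 is a basic helix-loop-helix protein that binds E-boxes, 6-base sequences of the form CANNTG, as a dimer. It is best known from exocrine cells such as pancreatic acinar cells, where it sustains the regulated secretory machinery, and it is also present in antibody-secreting cells. Xbp1, a transcription factor of the unfolded protein response (UPR), lies upstream of Bhlha15 in secretory cells, and Blimp1, encoded by Prdm1, is the factor that drives PC differentiation.

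The targeted gene was examined first. Bhlha15 (chr5:144951155-144955310, plus strand, mm9) reached 176 and 159 TPM in control libraries, whereas Bhlha15(CreER/CreER) libraries held 0.21 and 0.55 TPM. The libraries did not overlap and each carried the level its label calls for. Its log2 change of -8.51 (SE 0.35, adjusted p = 6.85e-05, limma) corresponds to a 365-fold lower value. Xbp1 itself differed little, at 3168 and 3043 TPM in the control against 2978 and 2917 TPM, a log2 change of -0.03 (95% interval -0.32 to 0.25, adjusted p = 0.956).

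Few other genes passed the test. Of 12125 genes tested, 39 (0.322%) passed an adjusted p below 0.05, of which 33 (0.272%) were lower and 6 (0.0495%) were higher in Bhlha15(CreER/CreER) PBs. By the unadjusted p, 692 genes (5.71%) lay below 0.05 in the lower and 575 (4.74%) in the higher direction. With a stricter rule modelled on that of the study, which also asks for a change of more than 3-fold and a mean above 5 TPM in the higher genotype (the study asks for 5 TPM in at least 1 sample, which gave the same counts), 4 genes were lower (0.033%), namely Bhlha15, Rab3d, Mir2861 and Serpini1, and 2 were higher (0.0165%), namely Snord37 and Mir677. The 39 genes that passed the adjusted p consisted of 28 protein-coding genes that fell, 3 that rose, and 8 short miRNA or snoRNA features. The libraries of the 2 genotypes did not overlap for any of the 39, which was also true of 19.4% of all genes in the lower and 18.9% in the higher direction. The number rested on single libraries. Without Xbp1(fl/fl) replicate 1, 3 genes were lower and 0 were higher by the adjusted p, and without Xbp1(fl/fl) replicate 2, 13 were lower and 11 higher. Without Bhlha15(CreER/CreER) replicate 1 the counts were 35 and 23, and without replicate 2 they were 39 and 6. The 3 genes that passed in every one of the 13 alternative analyses were Bhlha15, Rab3d and H2-T24, all of them lower.

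**Figure D1:**
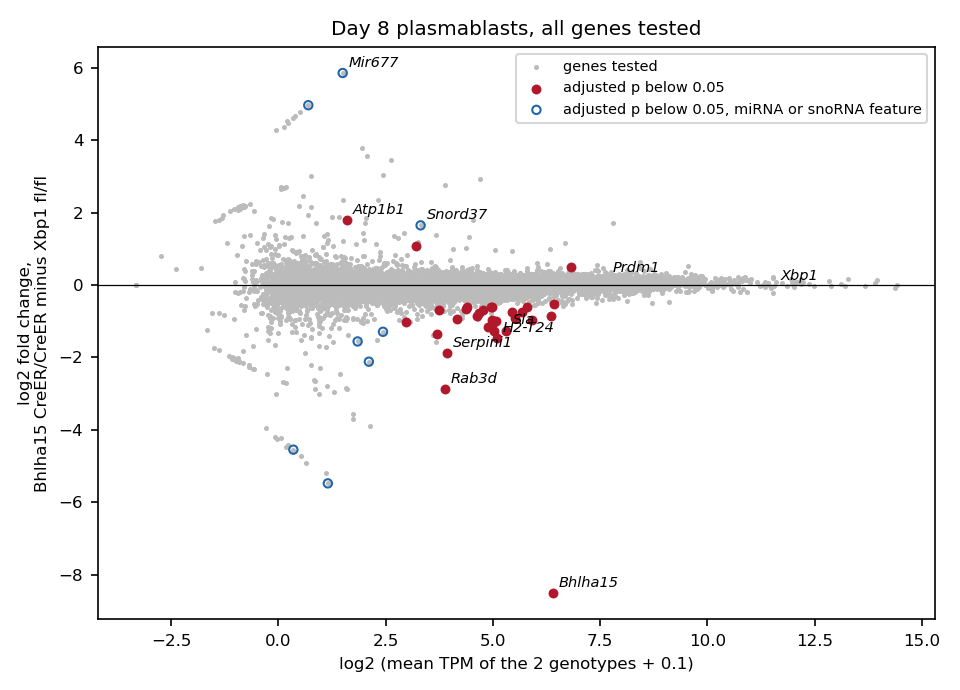
Each point is 1 of the 12125 genes tested, with the log2 of the mean TPM of both genotypes (plus 0.1) on the horizontal axis and the log2 fold change of Bhlha15(CreER/CreER) against Xbp1(fl/fl) PBs on the vertical axis. Filled points are protein-coding genes and open circles miRNA or snoRNA features with an adjusted p below 0.05; apart from Bhlha15 at -8.51 and Rab3d at -2.87, the protein-coding genes that fell lie between -1.87 and -0.52.

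Sequence around the genes that fell is given first, because 26 of the 27 lower protein-coding genes that could be placed in the annotation (96.3%) had a Mist1-bound region within 1 kb of an annotated start site. Bhlha15 itself is among these 26. The regions came from 2 Mist1 Bio-ChIP experiments with PBs raised for 4 days in lipopolysaccharide, a different culture, and 23804 regions were common to both. The share has to be read against a high background, since 64.3% of all 10781 tested protein-coding genes, and 70.9% of those with at least 5 TPM in the control, also had such a region. The exception was Rpgrip1, whose nearest common region lay 3578 bases from a start site. The following stretches of 60 bases come from the bound regions of the genes with large or well-measured decreases, each around the CAGCTG or CATATG nearest to a start site, with one of each for Rab3d. They are from the mm9 genome, on the strand of the gene, with the E-box in capitals.
Bhlha15 (chr5:144951273-144951332): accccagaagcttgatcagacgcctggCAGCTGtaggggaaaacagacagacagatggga
Rab3d (chr9:21722516-21722575): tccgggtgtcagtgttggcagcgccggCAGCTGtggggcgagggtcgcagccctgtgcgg
Rab3d (chr9:21722234-21722293): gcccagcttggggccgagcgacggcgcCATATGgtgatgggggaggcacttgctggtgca
Serpini1 (chr3:75362219-75362278): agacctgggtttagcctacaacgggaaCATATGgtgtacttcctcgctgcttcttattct
H2-T24 (chr17:36157104-36157163): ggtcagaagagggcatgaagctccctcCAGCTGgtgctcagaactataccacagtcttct
Qtrt1 (chr9:21216452-21216511): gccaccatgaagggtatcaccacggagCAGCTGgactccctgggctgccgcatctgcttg
Serpinb1a (chr13:32943037-32943096): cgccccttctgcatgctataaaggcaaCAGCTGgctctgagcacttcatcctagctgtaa
Sla (chr15:66644140-66644199): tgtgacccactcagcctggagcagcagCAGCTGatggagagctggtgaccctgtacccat
Pycr1 (chr11:120505113-120505172): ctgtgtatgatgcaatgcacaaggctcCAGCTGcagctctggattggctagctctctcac
The Rab3d and Serpinb1a E-boxes lay 13 bases and that of Sla 15 bases upstream of an annotated start, that of Pycr1 60 bases upstream, those of Bhlha15, Qtrt1 and H2-T24 148, 201 and 310 bases downstream, and the single CATATG of Serpini1 749 bases downstream.

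Over the 33 common regions at the start sites of the lower genes, CAGCTG occurred 1.17 times per kb and CATATG 0.351 times per kb. Over the 7398 common regions at the start sites of all tested protein-coding genes, the densities were 0.785 and 0.181 per kb. The regions of the lower genes were also longer, with a median of 2014 bases against 1372, so that 57.6% of them held a CATATG against 22.1% of all. Any CANNTG, a pattern that is the same on both strands and includes the other motifs, occurred 6.05 times per kb in the first set and 4.82 times in the second. In the 300 bases around the start (250 upstream and 50 downstream, RefSeq promoters of GRCm38.p6 that matched mm9 exactly) 5 of 17 lower genes (29.4%) and 14.7% of 8174 tested genes held a CAGCTG. Of the 17 lower genes 16 started in a common region, and 17.3% of the 4727 tested genes that did so held a CAGCTG. The promoter of Rapgef3, the gene for a cyclic AMP-activated exchange factor of the GTPase Rap1, held 3 of them and is shown with every CANNTG in capitals (chr15:97598048-97598347, minus strand, mm9).
Rapgef3: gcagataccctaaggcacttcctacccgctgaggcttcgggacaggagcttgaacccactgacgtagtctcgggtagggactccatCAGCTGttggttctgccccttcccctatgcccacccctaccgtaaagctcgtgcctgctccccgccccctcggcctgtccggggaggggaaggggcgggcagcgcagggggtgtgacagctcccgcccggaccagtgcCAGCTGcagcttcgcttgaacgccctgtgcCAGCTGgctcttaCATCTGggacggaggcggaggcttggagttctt
A motif match is a description of the sequence and no test of binding.

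Rab3d and Serpini1 had the largest decreases among the protein-coding genes other than Bhlha15. Rab3d, a small GTPase on secretory vesicles, was at 26.2 and 25.4 TPM in the control and at 3.605 and 3.11 TPM without Mist1. It fell by 2.87 on the log2 scale (SE 0.14, adjusted p = 1.28e-04), a 7.31-fold difference, and the libraries of either genotype lay close together. Serpini1, which encodes the secreted protease inhibitor neuroserpin, was at 24.2 and 23.4 TPM in the control and at 5.93 and 6.56 TPM without Mist1 (log2 fold change -1.87, SE 0.16, adjusted p = 0.00303). Serpinb1a, an intracellular inhibitor of neutrophil-type serine proteases, decreased from 47.0 and 46.2 TPM to 21.5 and 16.2 TPM (log2 fold change -1.27, SE 0.14, adjusted p = 0.0104). Kif16b, a kinesin that moves endosomes, decreased from 32.3 TPM in both control libraries to 18.2 and 16.3 TPM, and Ap5b1, a subunit of an endosomal adaptor complex, from 16.5 TPM in both to 10.7 and 9.18 TPM. Within the 35 tested genes of the list of Rab GTPases and secretion factors, Rab3d was the only one that passed, and the median log2 change of the list was 0.06. Rab27a, a GTPase of exocytosis, was at 121 and 115 TPM against 105 and 97.0 TPM (log2 fold change -0.18, adjusted p = 0.46). H2-T24, a nonclassical MHC class I gene, was at 50.8 and 49.3 TPM in the control and 17.9 and 17.4 TPM without Mist1, and its change of -1.46 (SE 0.09, adjusted p = 5.71e-04) was among the best measured.

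Several genes that fell encode enzymes or transporters, and they are described side by side only for their roles. Qtrt1, the catalytic subunit of the enzyme that puts queuine into tRNA, was at 17.9 and 19.3 TPM in the control and 7.13 and 7.01 TPM without Mist1 (log2 fold change -1.34, SE 0.10, adjusted p = 0.00219). Pycr1, which carries out the last step of proline synthesis, went from 46.6 and 43.6 TPM to 22.8 and 20.9 TPM (log2 fold change -0.999, SE 0.08, adjusted p = 0.00303). Bckdk, the kinase that inactivates the branched-chain ketoacid dehydrogenase, went from 107 and 106 TPM to 56.5 and 57.5 TPM, a change of -0.85 (SE 0.08). In each of these genes the lower of the control libraries was well above the higher of the mutant libraries. Pycr1 and Bckdk were the only members of the 22 tested genes of proline and amino acid metabolism that passed. In the same pathway Aldh18a1, which starts proline synthesis from glutamate (183 and 170 against 138 and 134 TPM, adjusted p = 0.22), did not pass. The median of the list was -0.03. Htra2, a mitochondrial protease, went from 64.4 and 65.8 to 38.5 and 37.1 TPM, Slc17a5, the lysosomal sialic acid exporter, from 33.6 and 31.8 to 18.4 and 18.7 TPM, and Nceh1, a cholesterol ester hydrolase, from 38.3 and 37.5 to 25.96 and 22.3 TPM.

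Other genes that fell have roles in signaling. Sla, an adaptor that dampens antigen receptor signaling, was at 58.8 and 53.8 TPM in the control and 20.7 and 24.9 TPM without Mist1 (log2 fold change -1.26, SE 0.13, adjusted p = 0.00809). Mib1, a ubiquitin ligase that acts on Notch ligands, fell from 41.0 and 40.7 to 20.1 and 15.7 TPM, a change of -1.16 (SE 0.10). Gpr65, a proton-sensing receptor, fell from 61.3 and 59.6 to 29.6 and 32.9 TPM, a change of -0.91 (SE 0.11). The ATP-gated channel gene P2rx3 fell from 42.6 and 41.2 to 19.8 and 21.7 TPM, and Rapgef3 from 21.3 and 26.3 to 12.3 and 11.7 TPM. Rgs14, a regulator of G protein signaling, Socs7, a suppressor of cytokine signaling, and Rassf4, a Ras-association protein, fell by 0.68, 0.66 and 0.62 on the log2 scale. The other protein-coding genes that fell were Cep250, which encodes a protein of the centrosome linker (42.5 and 44.2 against 21.2 and 17.7 TPM), Rpgrip1, BC003331, the translational repressor gene Paip2b, the nucleolar gene Mphosph10, Capn5 and Abcf2, with log2 changes from -1.11 for Cep250 to -0.52 for Abcf2.

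**Figure D2:**
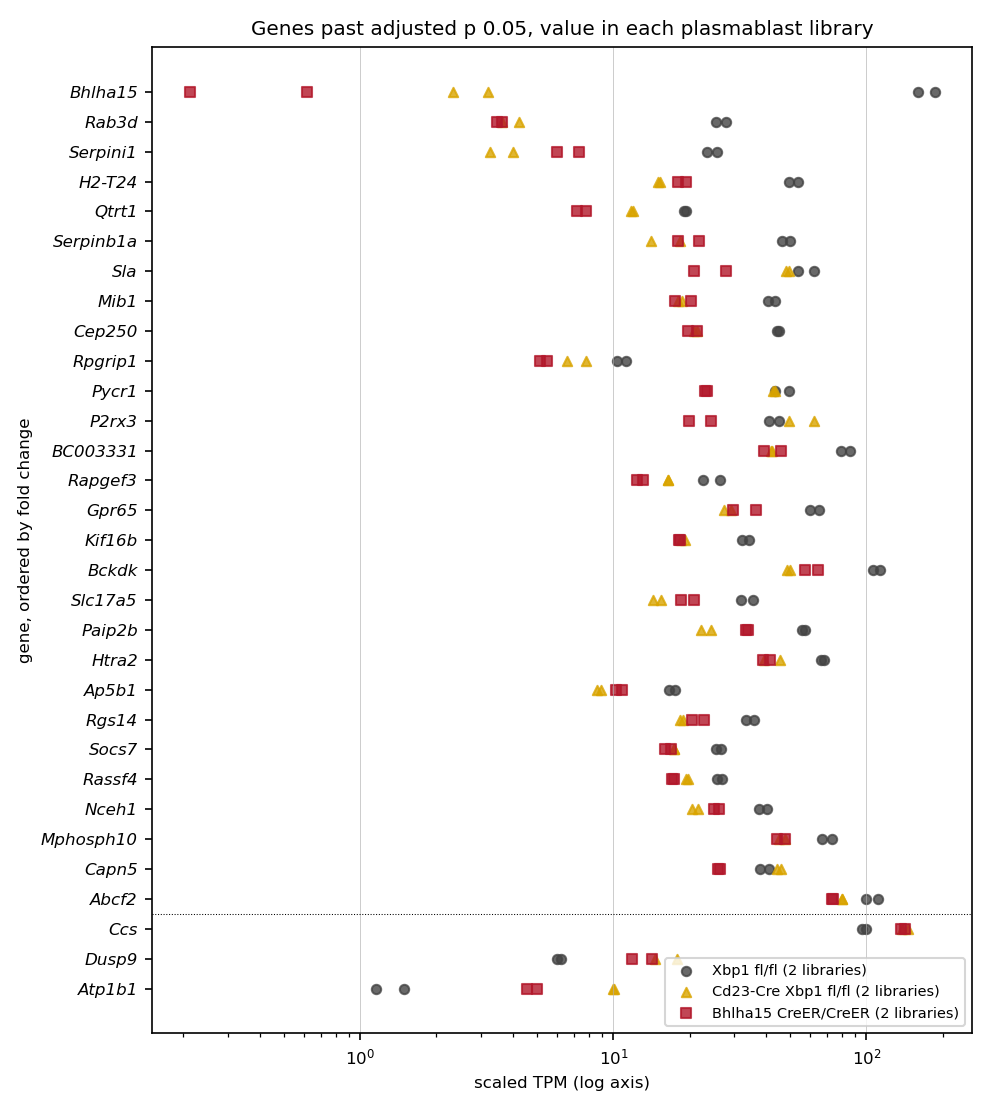
Scaled TPM (log axis) of the 31 protein-coding genes that passed the adjusted p of 0.05, in each of the 6 PB libraries (circles Xbp1(fl/fl), triangles Cd23-Cre Xbp1(fl/fl), squares Bhlha15(CreER/CreER)), ordered by the fold change, with the 28 genes that fell above the dotted line and the 3 that rose below it. The squares do not overlap the circles for any gene, whereas the triangles of Sla, Pycr1, P2rx3 and Capn5 lie near or above the circles.

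Only 3 protein-coding genes rose. Atp1b1, the beta subunit of the sodium-potassium pump, was at 1.09 and 1.48 TPM in the control and 4.96 and 4.09 TPM without Mist1 (log2 fold change 1.79, SE 0.18, adjusted p = 0.00715), and its low level kept it below the 5 TPM of the stricter rule. Dusp9, a phosphatase of MAP kinases, rose from 5.64 and 6.22 to 14.1 and 10.6 TPM (log2 fold change 1.08, SE 0.14, adjusted p = 0.025). Ccs, the copper chaperone of superoxide dismutase 1, rose from 94.3 and 96.3 to 136 and 127 TPM, a change of 0.51 (SE 0.07).

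The 8 short features carry values of another kind. Such a value counts reads of polyadenylated RNA over a short hairpin or snoRNA, which often lies inside a larger gene, and is no measure of the mature small RNA. Mir2861 was at 6.57 and 7.32 TPM in the control and 1.49 and 1.47 TPM without Mist1. Snord33 was at 6.57 and 8.78 TPM and 2.98 and 2.93 TPM in the same libraries, so that its values stood to those of Mir2861 as 1 to 1 and 6 to 5 in the control and as 2 to 1 in both mutant libraries, ratios of small whole numbers. The number of reads behind such values is not given and may be small. The fold changes and adjusted p-values of the short features, Mir2861, Mir677 and Snord37 included, are therefore uncertain. Mir677 was listed at 0 in both control libraries and at 6.27 and 4.63 TPM without Mist1, and Mir6769b at 0 against 4.08 and 2.00 TPM. Mir7094-1 (4.49 and 4.00 TPM) and Mir568 (3.25 and 1.45 TPM) were listed at 0 in both mutant libraries. Snord37, which lies within Eef2, rose from 5.08 and 4.53 to 16.1 and 13.6 TPM while Eef2 itself had a log2 change of 0.02 (adjusted p = 0.983). Mir7013 fell from 5.61 and 4.999 to 1.70 and 1.67 TPM. The mature sequences of the miRNAs that met the stricter rule are given from RefSeq (GRCm38.p6) to identify them, with the seed, bases 2 to 8, in capitals. No seed is shared.
mmu-miR-2861: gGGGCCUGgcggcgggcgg
mmu-miR-677-5p: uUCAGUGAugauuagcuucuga
mmu-miR-677-3p: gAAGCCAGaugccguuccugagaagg

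Transcription factors of the PC program did not pass the test in PBs. Prdm1 was at 205 and 175 TPM in the control and 206 and 215 TPM in Bhlha15(CreER/CreER) PBs, with a log2 fold change of 0.20 (95% interval -0.12 to 0.51, adjusted p = 0.658). After scaling the libraries of the genotypes overlapped, and the control libraries lay further apart than the mutant ones. Irf4 was at 683 and 651 TPM against 651 and 671 TPM, a change of 0.03 (95% interval -0.22 to 0.28) that turned negative with deposited or quantile-normalized values. In splenic PCs without Mist1 the log2 changes were 0.25 for Prdm1 (SE 0.09, adjusted p = 0.0793, limma) and 0.38 for Irf4 (SE 0.06, adjusted p = 0.00952, limma). The difference between PBs and PCs did not pass for Prdm1 (-0.08, SE 0.16, adjusted p = 0.840, limma interaction) or Irf4 (-0.37, SE 0.11, adjusted p = 0.101, limma interaction). In PBs, 0 of the 14 tested factors of the PC list passed, 7 lay below and 7 above 0, and the median was -0.01. The same held for the 6 tested E and Id proteins, the dimerization partners and antagonists of basic helix-loop-helix factors, with a median of 0.01; Tcf3, which encodes E2A, was at 171 and 170 TPM in the control and 174 and 171 TPM without Mist1. Markers of the sorted cells did not pass either. Sdc1, which encodes CD138, was at 166 and 157 TPM against 164 and 163 TPM, and Fcer2a, which encodes the CD23 used to exclude cells, at 67.2 and 76.9 TPM against 60.7 and 54.8 TPM (adjusted p = 0.241).

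Genes of the secretory machinery of the ER did not pass the test. Of the 28 tested ER chaperones and disulfide isomerases 0 passed, and their median log2 change was 0.10, with 22 above and 6 below 0 where 48.8% of all genes lay below 0. P4hb, a disulfide isomerase, had the lowest value (1862 and 1865 against 1602 and 1565 TPM, log2 fold change -0.19) and Pdia3 the highest (2843 and 2679 against 3060 and 3150 TPM, 0.21). The lists of signal recognition and translocation (22 tested, median 0.02), N-glycosylation (29 tested, 0.06), COPII and COPI coats (29 tested, 0.06), and UPR sensors and transcription factors (12 tested, -0.02) likewise had 0 genes that passed in either direction. In the last list Creb3l1, an ER-bound transcription factor of secretory cells, was at 7.18 TPM in both control libraries and 4.63 and 3.87 TPM without Mist1 (log2 fold change -0.71, adjusted p = 0.20). Among 8 tested genes linked to Mist1 in exocrine cells Rab3d alone passed, with a median of -0.08. No gene passed in the lists of B cell identity factors (15 tested, median -0.06), B cell surface and receptor signaling (26, -0.11), PC surface and survival (26, 0.04), MHC class II (11, -0.02), interferon response (27, 0.01), cell cycle (30, 0.04), p53 targets (20, 0.05), ATF4 targets (18, 0.003), glycolysis (23, -0.09), cholesterol and fatty acid synthesis (31, -0.01), lysosome and autophagy (36, 0.05) or sphingolipid enzymes (21, 0.04). The median over all 12125 genes was 0.004, and a limit of these lists is that no change below 0.51 on the log2 scale passed for any gene.

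**Figure D3:**
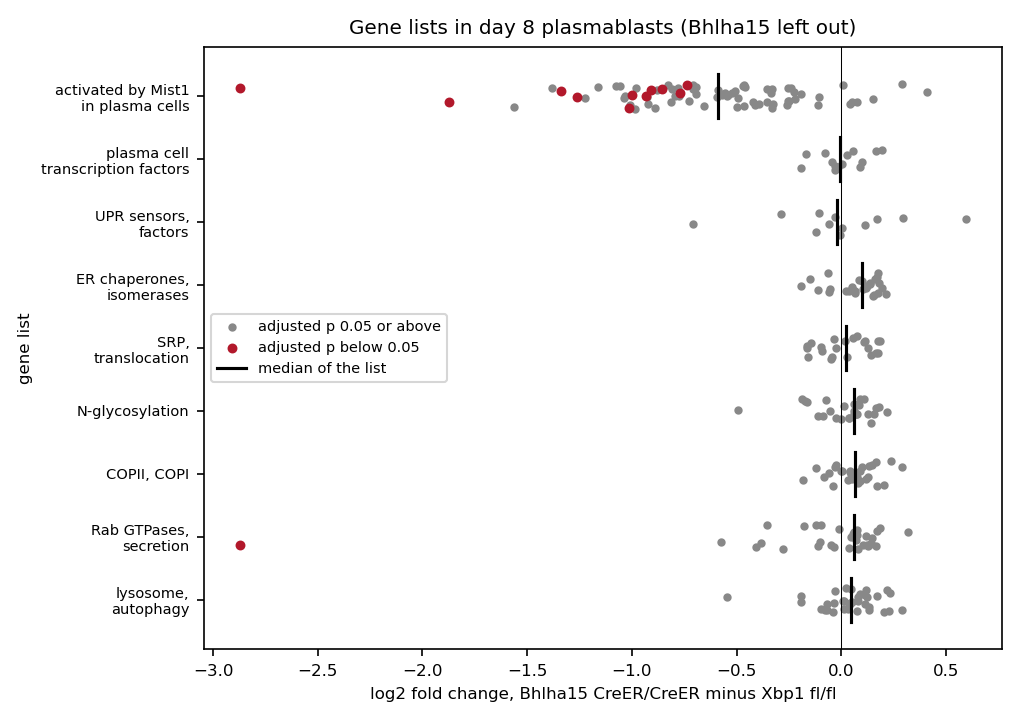
Log2 fold change of each tested member of 9 gene lists in Bhlha15(CreER/CreER) against Xbp1(fl/fl) PBs, with Bhlha15 left out; bars mark the median of each list, dark red points an adjusted p below 0.05. The list of genes activated by Mist1 in PCs has its median at -0.59, while the medians of the other 8 lists lie between -0.02 and 0.10.

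Genes that the study chose as activated by Mist1 in splenic PCs mostly lay below 0 in PBs. Of the 88 genes on that list 80 were tested and 12 were lower by the adjusted p, Bhlha15 included, against 0.272% of all genes; none was higher, and 73 of the 80 lay below 0 against 48.8% of all genes. The median log2 change was -0.59 in PBs, and without Bhlha15 it was the same to 2 decimals. The list was chosen on the PC libraries of this series, which are not used in the PB fit, so its PC values are no independent evidence. Dll3 (2.06 and 2.16 against 0.79 and 0.67 TPM) and Mansc1 (2.15 and 2.47 against 1.24 and 0.66 TPM) had log2 changes of -1.38 and -1.23 that did not pass at these low levels. Ctla4, an inhibitory receptor, had the highest value of the list (10.4 and 11.4 against 11.6 and 17.1 TPM, log2 fold change 0.41, adjusted p = 0.55). Of the 11 genes chosen as repressed by Mist1 in PCs, 6 were tested, 0 passed, and the median was 0.46; Endog, a mitochondrial endonuclease, was at 5.74 and 5.23 TPM against 9.60 and 8.16 TPM (adjusted p = 0.22).

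Splenic PCs gave an independent view of the genes found in PBs, since no library is shared. All 28 protein-coding genes that fell in PBs, Bhlha15 included, had values below 0 in PCs. By the adjusted p, 27 of them were lower there, against 16.2% of the 12028 genes tested in PCs. Bhlha15 was the gene targeted in both stages, and without it 26 of 27 were lower. The exception was Serpinb1a (21.3 and 32.1 TPM in control PCs, 19.8 and 21.9 TPM in PCs without Mist1, adjusted p = 0.236). The 3 protein-coding genes that rose in PBs all rose in PCs by the adjusted p, against 13.3% of the genes tested. Of the 8 short features, 0 passed in PCs. The stricter rule called 87 genes lower in PCs (0.723%). Of these, 80 were tested in PBs and 73 lay below 0 there. By the adjusted p 11 were lower, Bhlha15 included, which is 33.3% of the 33 genes lower in PBs and 13.8% of the 80, against 0.272% of all genes. Of the 80 tested genes on the study's list of genes activated by Mist1, 77 were among those called lower in PCs. Both sets rest on the same PC libraries, so these counts largely repeat those of that list and are no separate evidence. Of the 15 genes called higher in PCs, 10 were tested in PBs and 0 were higher by the adjusted p, against 0.0495% of all genes. So small a share leaves this count of 0 without information on their direction.

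The changes were mostly smaller in PBs. Over the 27 lower protein-coding genes other than Bhlha15, the median log2 change was -0.91 in PBs and -1.43 in PCs. Rab3d went from 116 and 79.7 TPM to 4.57 and 6.14 TPM in PCs, a change of -4.14 (SE 0.23) against -2.87 in PBs, and the difference just missed the threshold (adjusted p = 0.053 for the interaction). Gpr65 went from 117 and 101 TPM to 17.8 and 17.4 TPM in PCs, a change of -2.603 against -0.91 in PBs, and here the difference of 1.67 (SE 0.16) passed (adjusted p = 0.00631). The interaction passed for 10 of the 27 genes, each time with the smaller decrease in PBs, against 4.55% of all genes tested for it. The 27 genes had been chosen on the PB libraries that the interaction also uses. H2-T24 changed by -1.43 in PCs and -1.46 in PBs, and Mib1 by -1.06 and -1.16. Bhlha15 went the other way: PCs without Mist1 kept 14.4 and 16.6 TPM against 258 and 242 TPM in control PCs, a smaller change than the -8.51 of the PBs. PBs and PCs differed in culture, genotype and allele as well as in stage, and these cannot be told apart. Across the 10965 genes tested in both, the log2 changes had a Pearson correlation of 0.27 and a Spearman correlation of 0.43, a description across genes, which are not independent replicates.

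**Figure D4:**
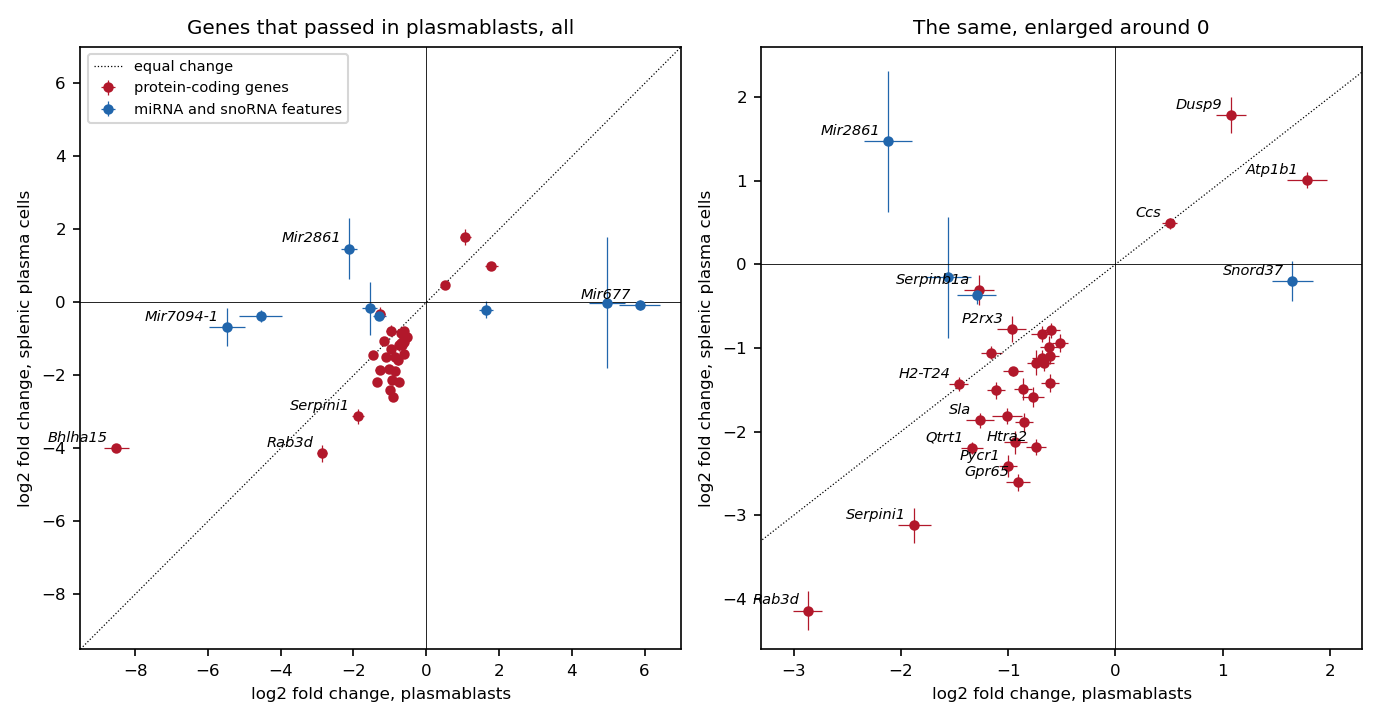
Log2 fold change upon loss of Mist1 in PBs (horizontal axis) and in splenic PCs (vertical axis) for the 39 genes that passed in PBs, with error bars of 1 SE; the right panel enlarges the region around 0. All 28 protein-coding genes that fell in PBs, Bhlha15 included, lie below 0 in PCs, and the short features scatter around 0 in PCs with values from -0.67 to 1.47.

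PBs with Cre-targeted Xbp1 share the control libraries, so their values are given side by side only. Xbp1 RNA remained at 1981 and 2024 TPM in their libraries (log2 fold change -0.84, SE 0.12, adjusted p = 0.00144), and a value over the whole gene does not show how much of it came from deleted alleles. Other-cell markers also set these libraries apart, with neutrophil sums of 144 and 143 TPM, T cell sums of 134 and 123 TPM, fibroblast sums of 3529 and 3312 TPM and macrophage sums of 32.8 and 35.9 TPM. The sums in Bhlha15(CreER/CreER) libraries were 13.04 and 6.76, 45.6 and 50.6, 2746 and 1899, and 168 and 151 TPM, and the part of such RNA in the differences that follow was not tested. Bhlha15 reached 3.57 and 2.604 TPM in the Cre-targeted PBs. Rab3d was at 4.74 and 4.07 TPM there and Serpini1 at 4.50 and 3.65 TPM, both with log2 changes of -2.73 against the shared control, and H2-T24 at 16.9 and 17.1 TPM. Sla was at 53.9 and 55.4 TPM, Pycr1 at 48.0 and 48.9 TPM, P2rx3 at 55.1 and 69.8 TPM and Capn5 at 49.6 and 51.7 TPM in those PBs. Both groups thus held little Bhlha15 RNA, and comparing them does not set presence of Mist1 against its absence. A direct test of Bhlha15(CreER/CreER) against Cd23-Cre Xbp1(fl/fl) PBs (limma) gave lower values in Bhlha15(CreER/CreER) PBs for Sla (log2 difference -1.01, SE 0.13, adjusted p = 8.28e-04), Pycr1 (-0.89, SE 0.08, adjusted p = 1.22e-04), P2rx3 (-1.33, SE 0.13, adjusted p = 1.63e-04), Capn5 (-0.79, SE 0.08, adjusted p = 1.62e-04), Qtrt1 (-0.65, SE 0.10, adjusted p = 0.00211) and Rapgef3 (-0.37, SE 0.11, adjusted p = 0.0311). For Rab3d the difference was -0.14 (SE 0.14, adjusted p = 0.493). Serpini1 was higher in Bhlha15(CreER/CreER) PBs than with Cre-targeted Xbp1 by 0.85 (SE 0.16, adjusted p = 0.00453), and Paip2b, Slc17a5, H2-T24, Bckdk and Nceh1 were higher as well. In all, 6 of the 27 genes were lower and 6 higher in this direct comparison, against 9.34% and 17.8% of all genes, and the genes had been chosen on the Bhlha15(CreER/CreER) libraries that it also uses.

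The neighbourhood of the 2 targeted loci held no gene that passed, where only 0.322% of all genes did. Of 75 tested genes that start within 5 Mb of Bhlha15 on chromosome 5, 0 passed, and their log2 changes ranged from -0.56 to 0.50 with a median of 0.03. The 4 nearest of them all lay below 0. Tecpr1, which starts 7909 bases away, was at 33.5 and 33.4 TPM in the control and 25.8 and 23.4 TPM without Mist1 (log2 fold change -0.40, SE 0.09, unadjusted p = 0.00194, adjusted p = 0.160, limma). Bri3, Lmtk2 and Baiap2l1, at 54151, 89850 and 98621 bases, had log2 changes of -0.34, -0.33 and -0.56, with unadjusted p-values of 0.0156, 0.0625 and 0.197 and adjusted p-values of 0.345, 0.509 and 0.667 in limma. The part of the inserted allele in these values was not tested. Of 62 within 5 Mb of Xbp1 on chromosome 11, 0 passed, with a median of -0.01. The smallest adjusted p near either locus was that of Myo1g, which starts 988026 bases from Xbp1. Its mean was 115 TPM in the control and 79.3 TPM without Mist1 (log2 fold change -0.49, SE 0.08, unadjusted p = 2.34e-04, adjusted p = 0.0604, limma). The part of the Xbp1 allele in this value was not tested. For 6 of the protein-coding genes that passed, namely BC003331, Cep250, Htra2, P2rx3, Rapgef3 and Rpgrip1, exons overlap a gene on the other strand. The methods name a directional kit for the RNA, but whether reads were counted by strand is not given in the sources used here. The 4 tested partners lie opposite BC003331, Htra2 and P2rx3 and include the abundant Ssrp1 (323 and 333 TPM in the mean of control and mutant libraries) opposite P2rx3. They had log2 changes from -0.24 to 0.09 and none passed. For Cep250, Rapgef3 and Rpgrip1 no partner was tested, and Ap5b1 was not placed in the annotation.

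Summed marker transcripts of other cells lay below those of fibroblasts. The summed level of 16 fibroblast and feeder genes, led by Vim and Col1a1, was 2206 and 2563 TPM in the control and 2746 and 1899 TPM without Mist1, and 0 of 14 tested passed. The sum of 15 neutrophil genes was 14.1 and 13.9 TPM in the control and 13.04 and 6.76 TPM without Mist1, with Cebpe, a factor of granulocyte development, at 0 in all 4 libraries and S100a8 and S100a9 at 0 in Bhlha15(CreER/CreER) replicate 2. The sum of 14 macrophage genes was 135 and 137 TPM in the control and 168 and 151 TPM without Mist1, and that of 14 T cell genes 46.2 and 54.7 TPM against 45.6 and 50.6 TPM. Sums of 7 erythroid genes were 126 and 131 TPM against 132 and 121 TPM. Only 8 of the neutrophil, 2 of the macrophage, 5 of the T cell and 1 of the erythroid genes were tested, and none passed. The macrophage and erythroid sums thus rested on few genes. Of the macrophage, T cell and erythroid genes, 4, 3 and 1 were at 0 in all 4 libraries. The part of such RNA in the result was not tested. The median absolute log2 difference between replicates was 0.11 in the control and 0.16 in Bhlha15(CreER/CreER) PBs, and 11514 to 11822 genes per library reached 1 TPM. Read depth is unknown, because TPM values sum to the same total in every library.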

How the data were processed

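Polyadenylated RNA of sorted cells was sequenced. Per the labels and methods, the authors trimmed reads with cutadapt, aligned them to mm9 with STAR 2.4.2, counted them with featureCounts 1.5, left out immunoglobulin and T cell receptor genes, and deposited TPM per gene and library. Per the series' design notes, the Bhlha15(CreER/CreER) libraries were not part of the authors' differential analysis. The methods nevertheless pooled them with the other PB libraries for normalization and for estimating the spread. TPM are not counts, so limma 3.58.1 (R 4.3.3) was used in place of a count test. Genes were matched by name after removal of an overlap mark that 3537 names carry. TPM were scaled by median-of-ratios size factors, filtered for at least 1 TPM in at least 2 libraries, and fitted as log2(TPM + 0.1) with limma (trend) over the 6 PB libraries in 3 groups, with Benjamini-Hochberg adjustment over all genes. Fold changes are on that scale and understate changes of low genes; TPM in the text are as deposited. PCs were fitted alone (4 libraries), and both stages together (8 libraries) for the interaction. An exact permutation test of 2 against 2 libraries cannot go below p = 0.333. The fit was also run on data simulated with normally distributed noise around the mean levels of these genes. Such data do not show how the calls depend on single libraries or on the variance model.

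The deposited Mist1 peaks (29413 and 30247, called by the authors per experiment with MACS, positions only) were taken as common where they shared at least 1 base (bedtools 2.31.1). Start sites came from GENCODE M1, where 11165 of 12125 tested genes were placed. By blastn 2.17.0 at 95% identity over 100 bases, Bckdk shared 101 to 141 bases with 12 genes and Serpini1 101 to 109 bases with 4, so that these are uncertain. The members and the 29 gene lists were chosen with earlier results of these data known. Named genes were Bhlha15, Xbp1, Prdm1 and Irf4, those meeting the 3-fold rule (5 TPM as the mean of the higher group), those also called in PCs and up to 2 passing members of each list; the other names were chosen after their values were seen. Alternatives changed scaling, pseudocount, filter, variance model or libraries.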

Additional observations from a re-analysis of the deposited data

Results flagged for a closer look

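For 16 of the 39 genes that passed in PBs, the log2 change upon loss of Mist1 differed between PBs and splenic PCs by a test of the difference itself (limma interaction over 8 libraries, adjusted over all genes, 4.55% of which passed). The 39 genes had been chosen on the PB libraries that this test also uses, so their share is no independent evidence. A positive difference means a smaller decrease, or a larger increase, in PBs. Among the protein-coding genes that fell, the decrease was smaller in PBs for Gpr65 by 1.67 (adjusted p = 0.00631), Htra2 by 1.42 (adjusted p = 0.00368), Pycr1 by 1.39 (adjusted p = 0.0109), Serpini1 by 1.22 (adjusted p = 0.0483), Rapgef3 by 1.18 (adjusted p = 0.0214), Bckdk by 1.01 (adjusted p = 0.0156), Qtrt1 by 0.83 (adjusted p = 0.0154), Slc17a5 by 0.80 (adjusted p = 0.0360), Nceh1 by 0.79 (adjusted p = 0.0257) and Rpgrip1 by 0.78 (adjusted p = 0.0306).

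Bhlha15 differed by -4.54 (adjusted p = 0.00681), the decrease being larger in PBs, where the allele is a CreER insertion, than in PCs, where it is a Cre-deleted floxed allele. The short features differed as follows: Snord33 by -0.95 (adjusted p = 0.0476), Snord37 by 1.83 (adjusted p = 0.0236), Mir568 by -4.19 (adjusted p = 0.0117), Mir7094-1 by -4.81 (adjusted p = 0.0156) and Mir677 by 5.91 (adjusted p = 3.50e-04). For the last 3, 1 genotype of the PBs was listed at 0 TPM in both libraries, and the size of the difference is set by the pseudocount of 0.1. Mir7094-1 lies among the variable segments of the immunoglobulin heavy chain locus in RefSeq.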

How the results depend on the processing

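The direction of all 38 genes other than Bhlha15 that passed held in each of the 13 alternatives (34 of the 38 could be fitted with a filter of 5 TPM). Their side of the threshold did not: 2 of 38 passed without Xbp1(fl/fl) replicate 1, 15 without replicate 2, 25 and 27 without Bhlha15(CreER/CreER) replicate 1 and 2, 8 with a variance model without trend, 25 without a filter on low values, and 34 to 38 otherwise. The 1 library left in a group was assumed to vary like the other groups. Genes lower by the adjusted p (33) numbered 74 with deposited values, 63 with quantile normalization, 53 with a filter of 5 TPM, 11 without trend and 71 with a robust fit, and 3 to 39 with a library left out. Genes higher (6) numbered 12, 12 and 10 with deposited values, quantile normalization and the robust fit, 10 without a filter, and 0 to 23 with a library left out. Under the 3-fold rule, 2 to 7 genes were lower (4) and 0 to 6 higher (2) with a library left out, 0 were higher with a pseudocount of 1 or without trend, and a 2-fold rule gave 13 and 3. Bhlha15 ranged from -9.12 to -6.95. The median of the Mist1-activated list stayed between -0.67 and -0.50. The share of lower genes with a Mist1 region was 100% within 10 kb (all genes 75.7%) and 85.2% where peaks shared at least 50% of their length (all genes 59.7%). Irf4 turned to -0.0135 with deposited values and -0.0842 with quantile normalization, and ranged from -0.0664 to 0.132 with a library left out; Xbp1 then ranged from -0.104 to 0.0397. The cause of these shifts was not tested. No paired analysis was possible because the labels carry no replicate numbers; those used here follow the order of the records and only name a library. With 2 libraries a group, smaller changes could not be detected; the depth is unknown.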

Other observations

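Fos, Fosb, Jun and Rgs1 were singled out after their values were seen, and none passed the test. Fos, a gene of the immediate early response like Fosb and Jun, was at 126 and 73.8 TPM in the control and 189 and 504 TPM in Bhlha15(CreER/CreER) PBs (log2 fold change 1.72, SE 0.45, adjusted p = 0.221). Fosb was at 5.39 and 2.70 TPM against 9.84 and 86.0 TPM (adjusted p = 0.295), and Jun at 69.1 and 58.2 TPM against 115 and 167 TPM (log2 fold change 1.17, SE 0.20, adjusted p = 0.0661). Rgs1, which ends G protein signals in B cells, was at 10.8 and 13.5 TPM against 21.9 and 40.0 TPM (adjusted p = 0.151). In each of these genes the highest value was that of Bhlha15(CreER/CreER) replicate 2, and for Fos and Fosb the mutant libraries lay far apart. In PCs without Mist1 the log2 changes were 0.32 for Fos, -0.06 for Fosb, 0.31 for Jun and -0.83 for Rgs1.

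Just beyond the threshold lay Pdcd4, a translational inhibitor, at 30.5 and 33.3 TPM against 20.3 and 20.9 TPM (log2 fold change -0.58, adjusted p = 0.0512), and Cd84, a homophilic receptor of the SLAM family, whose log2 change was -0.58 (adjusted p = 0.0527). Both fell in PCs without Mist1, by 0.62 and 0.90 on the log2 scale. Ripk3, a kinase of necroptosis, was at 80.2 and 81.8 TPM against 109 TPM in both mutant libraries (log2 fold change 0.47, adjusted p = 0.063), with a change of 0.03 in PCs.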
